A study of Mus musculus with 26 samples.

Results

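The antioxidant enzyme genes described here were Sod1, Sod2, Sod3, Cat, Gpx1, Gpx3, Gpx4, Prdx1, Prdx3 and Prdx6. They were chosen by name, and each symbol matched 1 gene, which gave 10 of the 55401 genes in the table. All 10 had enough reads to be tested. The livers came from male C57BL/6 mice started on a high-fat diet at 4 weeks of age and kept on it for 18 weeks, which the series design describes as also high in cholesterol. In the UCMSC-Exos group (8 libraries) the mice received exosomes of UCMSCs into the tail vein every 72 hours for 8 weeks. The untreated HFD group (9 libraries) had the same strain, sex and diet, and no injection is listed for it. A change between the groups therefore cannot be told apart from an effect of repeated injection, or of a cage or cohort that one group shared. Exosomes are small vesicles that cells release, and the labels carry UCMSC only as an abbreviation. The 9 samples of another treated group, LSCR, were not analysed here. The labels number the libraries as replicate mice and give no cage, litter or batch, so the p-values measure the spread between these samples only.

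These enzymes work in sequence. Superoxide dismutases turn the superoxide radical into hydrogen peroxide, and catalase, glutathione peroxidases and peroxiredoxins then remove hydrogen peroxide or lipid peroxides, drawing electrons from glutathione, thioredoxin or, for catalase, peroxide itself. The liver is rich in these enzymes because peroxisomes, mitochondria and microsomal oxidases of hepatocytes all release peroxide. Some glutathione peroxidases carry selenium as selenocysteine, which is inserted at a UGA codon that would otherwise stop translation.

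Each library held 32.9 to 36.1 M assigned reads. Values are CPM, the reads of a gene per 1 M reads, scaled by edgeR's TMM factors. UCMSC-Exos 9 stood apart from its group. On the first principal component, which held 40.8% of the variance, it lay at −49.6, against 30.6 to 63.2 in the other UCMSC-Exos libraries and −51.7 to −2.2 in the untreated HFD libraries. Untreated HFD 3 held 13300 CPM of pancreas markers, against 18.4 CPM or less in UCMSC-Exos libraries. Untreated HFD 9 held 10940 CPM of muscle markers, against 15.6 CPM or less in UCMSC-Exos libraries. Liver was checked by its markers, and 12 hepatocyte genes summed to 63600 to 110100 CPM in UCMSC-Exos and 55180 to 95410 CPM in untreated HFD. Sums of 8 kidney tubule markers stayed at 0.75 CPM or less, with Slc12a1 and Slc22a6 at 0 reads in every library. In bulk RNA, fewer cells of a type and less RNA per cell cannot be told apart.

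In livers of the UCMSC-Exos group, Cat and Gpx1 rose and Sod3, Gpx3 and Gpx4 fell. Cat, catalase of the peroxisome, and Gpx1, the cytosolic and mitochondrial glutathione peroxidase, were the 2 most abundant transcripts of the group by mean CPM and per annotated exon length. Sod3 and Gpx3 encode the secreted superoxide dismutase and the secreted glutathione peroxidase of plasma, and Gpx4 the enzyme that reduces lipid peroxides within membranes. The other 5 genes (Sod1, Sod2, Prdx1, Prdx3 and Prdx6) did not pass an adjusted p of 0.05 by edgeR's quasi-likelihood test. Thus 2 genes passed as higher, where 9.73% of all 16238 genes tested did, and 3 as lower, where 10.4% did. In either direction 50% of the 10 passed, against 20.2% of all genes tested. Without UCMSC-Exos 9 the counts were 5 higher and 3 lower, and without UCMSC-Exos 9 and untreated HFD 3 and 9 they were 6 and 3. The share of all genes tested that passed also grew, to 35.7% and 41.9% in those fits. With 3 surrogate variables, which are hidden factors estimated from the expression values themselves, no gene of the group passed as higher and 4 passed as lower, while 5.49% of all genes passed.

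**Figure D1:**
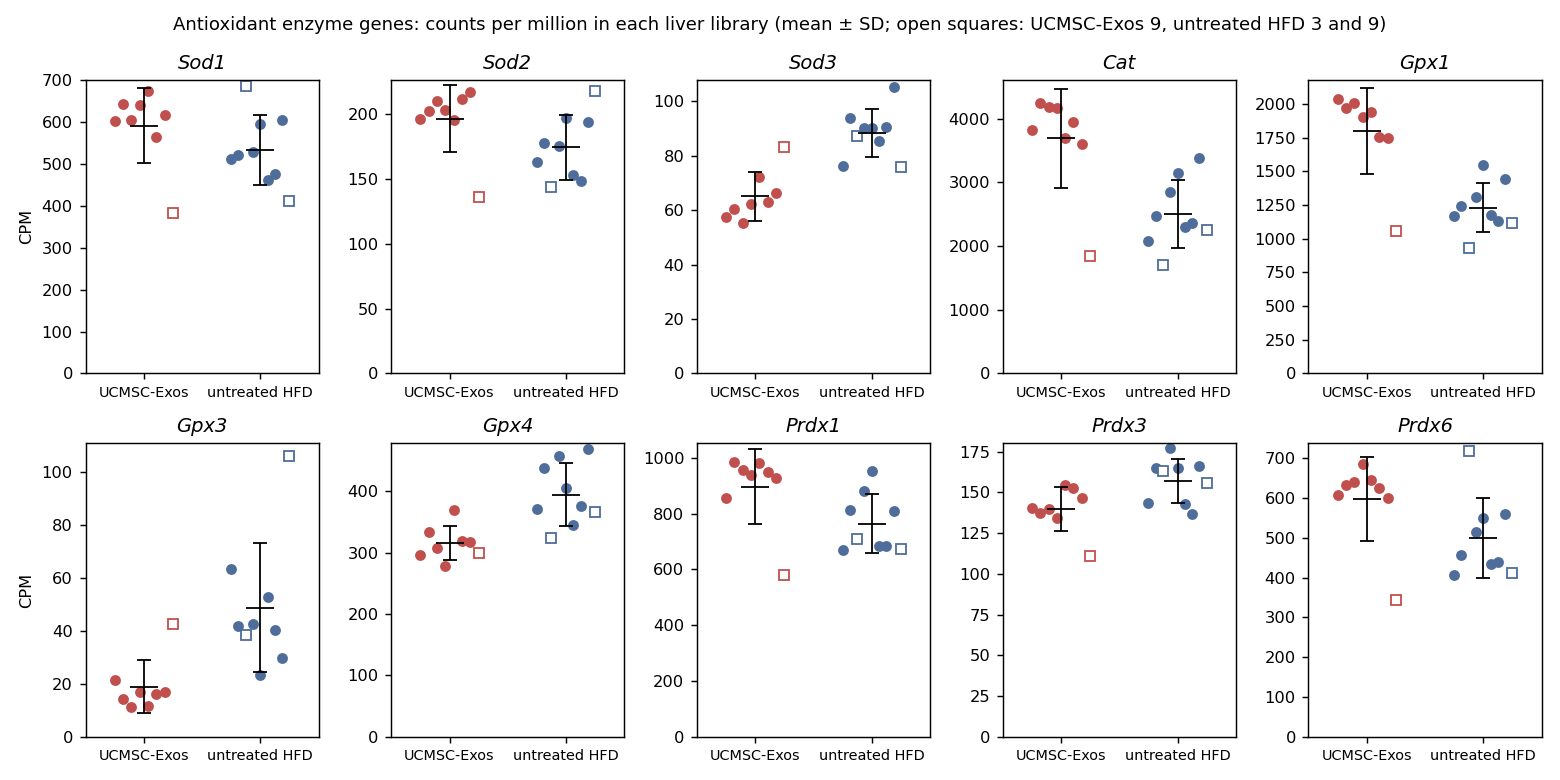
Level in CPM of each antioxidant enzyme gene (vertical axes, from 0) in the UCMSC-Exos libraries (left, red) and untreated HFD libraries (right, blue). Each point is 1 library, the bars give the mean ± SD, and open squares mark UCMSC-Exos 9 and untreated HFD 3 and 9. For Cat and Gpx1, 7 of 8 UCMSC-Exos libraries lie above every untreated HFD library, and for Sod3 and Gpx3, 7 of 8 lie below every one.

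Of the members that passed, Gpx1, Gpx3 and Gpx4 encode selenoproteins. The stretch around that codon is shown because it marks what these genes share and Cat and the dismutases lack. The lines below give 63 bases of coding sequence from GENCODE M21 transcripts (GRCm38), 5′ to 3′ on the sense strand, with the selenocysteine codon TGA in capitals.
Gpx1: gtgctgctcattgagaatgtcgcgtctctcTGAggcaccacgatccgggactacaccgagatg
Gpx3: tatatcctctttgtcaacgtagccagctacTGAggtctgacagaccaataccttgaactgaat
Gpx4: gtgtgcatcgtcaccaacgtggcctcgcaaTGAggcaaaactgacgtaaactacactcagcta
The codon of Gpx1 is number 47 of its reading frame, in exon 1 of 2, at chr9:108339451-108339453. That of Gpx3 is number 73, in exon 2 of 5, at chr11:54907256-54907258, and its window runs on into the following exon. In the reading frame of the Gpx4 transcript used here, Gpx4-202, it is also number 73, in exon 3 of 7, at chr10:80054737-80054739. Laid side by side without gaps, the windows of Gpx1 and Gpx4 shared 35 of 63 bases, those of Gpx3 and Gpx4 29, and those of Gpx1 and Gpx3 27.

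Among the dismutases, Sod1 (mm10, chromosome 16 from 90220754 to 90226329), the copper and zinc enzyme of the cytosol, had 384.2 CPM at the lowest, 611.8 at the median and 675.9 at the highest in UCMSC-Exos. In untreated HFD it had 412.7, 523.0 and 686.7 CPM. The groups overlapped, and UCMSC-Exos 9 was the lowest of all 17 libraries. The log2 fold change was 0.15 ± 0.11 (SE; edgeR adjusted p = 0.36), with 7 of 8 UCMSC-Exos libraries above the untreated HFD median.

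Sod2 (chromosome 17 from 13006846 to 13040063), the manganese enzyme of the mitochondrial matrix, ranged from 135.7 to 216.9 CPM around a median of 202.6 in UCMSC-Exos. The untreated HFD libraries ranged from 143.8 to 217.6 CPM around 175.1. All but UCMSC-Exos 9 lay within the upper part of the untreated range. Its log2 fold change of 0.17 ± 0.10 did not pass (edgeR adjusted p = 0.216). Without UCMSC-Exos 9 it was 0.23 and passed (edgeR adjusted p = 0.0315; 0.00377 to 0.417 over 27 alternatives).

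The secreted enzyme Sod3 (chromosome 5 from 52363791 to 52371418), which binds to the matrix outside cells, had 55.26 CPM at the lowest, 62.74 at the median and 83.09 at the highest in UCMSC-Exos, against 75.73, 90.02 and 105.4 CPM in untreated HFD. Every UCMSC-Exos library lay below the untreated HFD median, and UCMSC-Exos 9 alone reached into the untreated range. Sod3 fell by 0.44 ± 0.08 log2 units (± SE; edgeR adjusted p = 0.00146). It passed in 27 of 27 alternatives, at log2 fold changes of −0.54 to −0.38.

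Cat (chromosome 2 from 103453849 to 103485160) had 1846 CPM at the lowest, 3890 at the median and 4251 at the highest in UCMSC-Exos, against 1704, 2371 and 3390 CPM in untreated HFD. Of the UCMSC-Exos libraries 7 lay above all 9 untreated ones, and UCMSC-Exos 9 lay near the bottom of the untreated range. Cat rose by 0.56 ± 0.16 log2 units (± SE; edgeR adjusted p = 0.0222), a ratio of means of 1.47. The rise passed in 26 of 27 alternatives. With surrogate variables the value was −0.02 (edgeR adjusted p = 0.94; the alternatives ran from 5.6e-05 to 0.94).

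Gpx1 (chromosome 9 from 108338903 to 108340343) ranged from 1060 to 2034 CPM with a median of 1921 in UCMSC-Exos, and from 932.8 to 1545 CPM with a median of 1178 in untreated HFD. As for Cat, the 7 libraries other than UCMSC-Exos 9 lay above every untreated one. Gpx1 rose by 0.55 ± 0.13 log2 units (± SE; edgeR adjusted p = 0.00629). It passed in 26 of 27 alternatives and missed the threshold with surrogate variables at 0.13 (edgeR adjusted p = 0.329; range over the alternatives 5.57e-06 to 0.329).

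Most hepatocyte markers were higher in UCMSC-Exos, as Cat and Gpx1 were. Of 12 markers 11 were higher and 0 lower in UCMSC-Exos, 91.7% against 20.2% of all genes tested. Their median log2 fold change was 0.66, and none of the 12 was at 0 reads. Their sum was 63600 CPM in UCMSC-Exos 9 and 87070 to 110100 CPM in the other UCMSC-Exos libraries, against 55180 to 95410 CPM in untreated HFD. UCMSC-Exos 9 was thus the lowest of its group for Cat, Gpx1 and this sum alike. Untreated HFD 3 went the other way. It had the highest sum of its group (95410 CPM) but the lowest Cat (1704 CPM) and Gpx1 (932.8 CPM) of all libraries. Of 5 tested erythroid markers 3 were higher and 0 lower, 60% against 20.2% of all genes tested. The 8 listed summed to 141.2 to 345.7 CPM in UCMSC-Exos and 72.0 to 199.6 CPM in untreated HFD, with UCMSC-Exos 9 again lowest of its group. None of 13 mitochondrially encoded genes passed, and their sum was 26810 CPM in UCMSC-Exos 9 and 41030 to 48560 CPM in the other UCMSC-Exos libraries, against 2953 CPM in untreated HFD 3, 61400 CPM in untreated HFD 9 and 28250 to 38050 CPM in the other untreated HFD libraries. The part of these transcripts in the rise of Cat and Gpx1 was not tested.

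Because Cat and Gpx1 moved together, the promoter windows of both are shown, from 250 bases before to 50 bases after the RefSeq start (GRCm38.p6), 5′ to 3′ on the strand of the gene, with the GC box GGGCGG or its reverse CCGCCC in capitals. The Cat window is chr2:103485104-103485403 on the minus strand and the Gpx1 window chr9:108338830-108339129 on the plus strand.
Cat: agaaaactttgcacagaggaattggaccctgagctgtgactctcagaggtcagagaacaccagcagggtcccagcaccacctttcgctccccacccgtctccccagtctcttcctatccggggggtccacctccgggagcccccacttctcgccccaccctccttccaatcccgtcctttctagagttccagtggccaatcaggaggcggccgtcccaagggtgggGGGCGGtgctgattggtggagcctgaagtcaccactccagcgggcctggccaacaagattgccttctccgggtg
Gpx1: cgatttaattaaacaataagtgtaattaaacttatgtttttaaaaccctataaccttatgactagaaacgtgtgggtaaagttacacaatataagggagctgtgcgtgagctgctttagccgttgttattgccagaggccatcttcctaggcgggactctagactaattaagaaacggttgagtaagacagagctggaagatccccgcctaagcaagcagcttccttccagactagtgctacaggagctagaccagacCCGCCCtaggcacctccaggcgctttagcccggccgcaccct
The box of Cat began 24 bases before the start, and that of Gpx1 8 bases after it on the opposite strand. Of 32851 RefSeq promoter windows 35.7% held this motif on either strand. All 8 members with a window held it too, among them Gpx3 and Gpx4, which fell, and Sod1, Sod2, Prdx1 and Prdx3, which did not pass. Members were counted by gene, over 11 windows, and the 35.7% by window, so these figures differ in unit. Of the Gpx4 windows, that at chr10:80046916-80047215 held no GC box.

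Gpx3 (chromosome 11 from 54902453 to 54910377) ranged from 11.3 to 42.72 CPM with a median of 16.57 in UCMSC-Exos, and from 23.44 to 106.2 CPM with a median of 42.06 in untreated HFD. Relative to its mean it had the widest spread of the 10 genes, with an SD of 53.3% of the mean in UCMSC-Exos and 50.2% in untreated HFD. UCMSC-Exos 9 lay just above the untreated median, the other 7 lay below every untreated library, and untreated HFD 9 was far above the rest. Gpx3 fell by 1.36 ± 0.31 log2 units (± SE; edgeR adjusted p = 0.00651). It passed in 27 of 27 alternatives, at −1.65 without UCMSC-Exos 9 and at −0.59 with surrogate variables.

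Gpx4 (chromosome 10 from 80047166 to 80056439) had 278.7 CPM at the lowest, 312.4 at the median and 370.0 at the highest in UCMSC-Exos, against 323.0, 376.4 and 468.8 CPM in untreated HFD. All 8 UCMSC-Exos libraries, UCMSC-Exos 9 included, lay below the untreated HFD median, and 6 lay below every untreated library. Gpx4 fell by 0.32 ± 0.08 log2 units (± SE; edgeR adjusted p = 0.0136) and passed in 28 of 28 alternatives. The table also holds Gpx4-ps2, a pseudogene copy, with 1772 reads per library on average against 12435 for Gpx4. The copy averaged 44.0 ± 4.14 CPM in UCMSC-Exos and 57.1 ± 5.69 CPM in untreated HFD (SD, n = 8 and 9), a log2 fold change of −0.38 ± 0.07, and how the aligner divided reads between copy and gene is uncertain. With the copy's reads added, a setting chosen after the data were seen, Gpx4 stood at −0.33 (edgeR adjusted p = 0.00969; 0.000227 to 0.0408 over the alternatives).

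Markers of other liver cells are given beside Sod3, Gpx3 and Gpx4. Of 10 stellate cell and fibroblast markers 3 were lower and 0 higher, 30% against 20.2% of all genes tested. The sum of the 10 was 2008 CPM in UCMSC-Exos 9 and 520.9 to 740.1 CPM in the other UCMSC-Exos libraries, against 807.9 to 2104 CPM in untreated HFD. Among the 3 lower markers is Des, also a muscle gene, which had 5.21 to 13.9 CPM in UCMSC-Exos and 681.3 CPM in untreated HFD 9, against 14.4 CPM or less in the other untreated HFD libraries. Without Des, a sum taken after the data were seen, the markers held 1994 CPM in UCMSC-Exos 9 and 515.1 to 733.4 CPM in the other UCMSC-Exos libraries, against 799.2 to 2001 CPM in untreated HFD. None of 9 cholangiocyte markers passed, and their sum was 626.9 CPM in UCMSC-Exos 9 and 50.3 to 135.6 CPM in the other UCMSC-Exos libraries, against 124.7 to 550.8 CPM in untreated HFD. Of 9 Kupffer cell markers 4 were higher and 0 lower, 44.4% against 20.2% of all genes tested. Of 8 monocyte and neutrophil markers 2 were lower and 0 higher, 25%, which is near the share of all genes. No marker of these lists was at 0 reads in every library. The part of these cells in the lower Sod3, Gpx3 and Gpx4 was not tested.

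The peroxiredoxins reduce peroxides with a reactive cysteine. Prdx1 (chromosome 4 from 116685544 to 116700822), the abundant cytosolic member, ranged from 580.8 to 983.6 CPM with a median of 942.9 in UCMSC-Exos, and from 671.1 to 953.5 CPM with a median of 709.4 in untreated HFD. UCMSC-Exos 9 was the lowest library of all, and the other 7 lay in the upper part of the untreated range or above it. The log2 fold change was 0.23 ± 0.11 (SE; edgeR adjusted p = 0.136), and 0.30 without UCMSC-Exos 9, which passed (edgeR adjusted p = 0.0103; 0.00753 to 0.39 over 27 alternatives).

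Prdx3 (chromosome 19 from 60864051 to 60874556), the mitochondrial member, had 111.2 CPM at the lowest, 140.1 at the median and 154.3 at the highest in UCMSC-Exos. In untreated HFD it had 136.8, 163.1 and 177.0 CPM. All 8 UCMSC-Exos libraries lay below the untreated HFD median, although most lay within the untreated range. The log2 fold change of −0.17 ± 0.07 did not pass (edgeR adjusted p = 0.0927), and with surrogate variables it was −0.32 and passed (edgeR adjusted p = 0.0048; 0.0048 to 0.211 over 27 alternatives).

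Prdx6 (chromosome 1 from 161240112 to 161251219), a member with a single reactive cysteine that also acts on phospholipids, ranged from 343.0 to 685.9 CPM with a median of 628.1 in UCMSC-Exos, and from 406.5 to 718.8 CPM with a median of 456.3 in untreated HFD. UCMSC-Exos 9 was the lowest and untreated HFD 3 the highest library of all. Its log2 fold change was 0.26 ± 0.13 (SE; edgeR adjusted p = 0.169). Without UCMSC-Exos 9 or without untreated HFD 3 it was 0.34 and passed (edgeR adjusted p = 0.0159 and 0.047; 0.000305 to 0.783 over 27 alternatives).

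**Figure D2:**
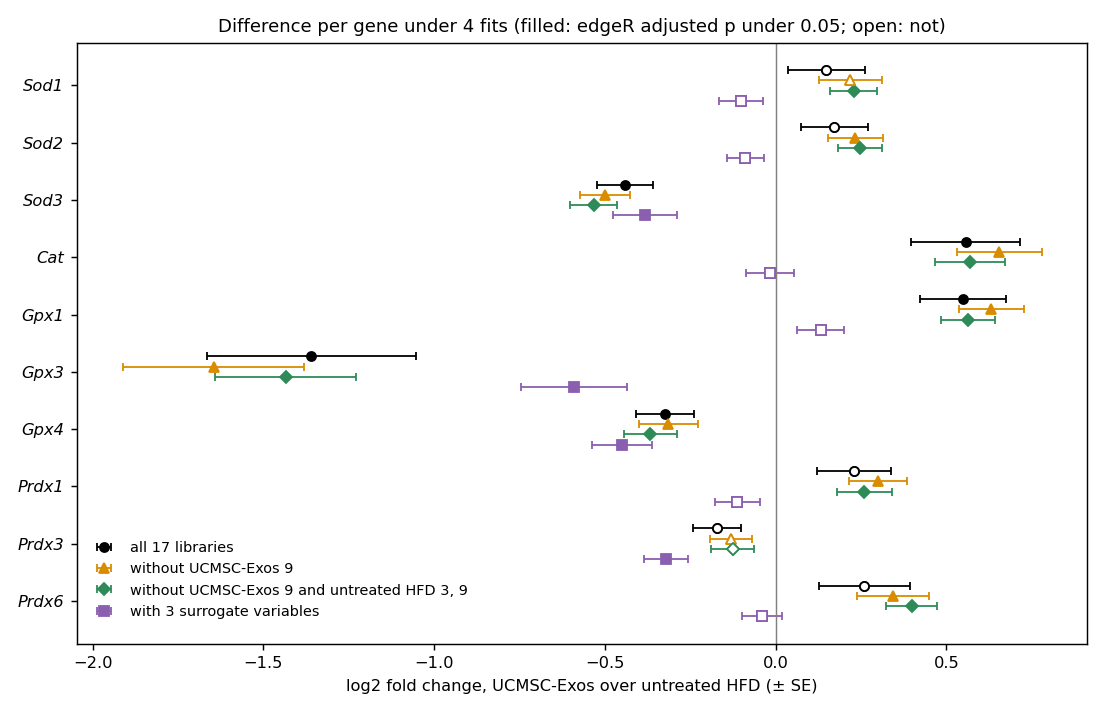
Log2 fold change of each gene, UCMSC-Exos over untreated HFD (horizontal axis; bars ± SE), with all 17 libraries (black), without UCMSC-Exos 9 (orange), without UCMSC-Exos 9 and untreated HFD 3 and 9 (green) and with 3 surrogate variables (purple). Filled symbols passed an edgeR adjusted p of 0.05. Sod3, Gpx3 and Gpx4 are filled and below 0 in all 4 fits, whereas Cat is 0.56 with all libraries and −0.02 with surrogate variables.

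Prdx1 and Sod1 were the members whose promoter windows held the core of the antioxidant response element, TGACNNNGC, the motif bound by NRF2. The core was sought on both strands of 11 windows, which covered 8 members. Both matches lay on the strand opposite to the gene, and they are shown, in capitals and with 15 bases on each side, because this motif is the textbook control element of the family (RefSeq, GRCm38.p6, 5′ to 3′ on the strand of the gene).
Prdx1: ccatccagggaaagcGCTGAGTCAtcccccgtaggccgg
Sod1: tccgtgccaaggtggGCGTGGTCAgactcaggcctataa
The Prdx1 stretch is chr4:116685451-116685489 and its match began 133 bases before the start. That of Sod1 is chr16:90220691-90220729, 56 bases before the start. Of all 32851 windows 12.4% held the core. Neither Prdx1 nor Sod1 passed the test with all libraries, and Cat and Gpx1, which did, held no match in these windows.

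The direction of each gene against the untreated HFD median was the same in 7 of the 8 UCMSC-Exos libraries. In UCMSC-Exos 1, 2, 3, 5, 6, 7 and 8 the genes Sod1, Sod2, Cat, Gpx1, Prdx1 and Prdx6 lay above that median, and Sod3, Gpx3, Gpx4 and Prdx3 lay below it. UCMSC-Exos 9 had 1 gene above, Gpx3 by 0.02 on the log2 scale, and 9 below. Among the untreated HFD libraries, no library had the same 6 genes above and the same 4 below, and 4 and 8 had 9 genes above while 1 had 9 below. The pattern of 6 and 4 was read from the UCMSC-Exos libraries themselves, so this is a description only. Its share over all genes was not computed. A split of 7 above and 1 below also occurred for Prdx2 and Rpl3, at log2 fold changes of 0.02 and 0.06, whereas Txn1 and Rps24 split 4 and 4. The median size of the deviation over the 10 genes was 0.35 to 0.48 (log2) in UCMSC-Exos libraries and 0.04 to 0.26 in untreated HFD libraries. That median was itself computed from the untreated libraries, so their deviations are smaller by construction. The deviations of all libraries also rest on the TMM scaling, whose factors differed between the groups.

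**Figure D3:**
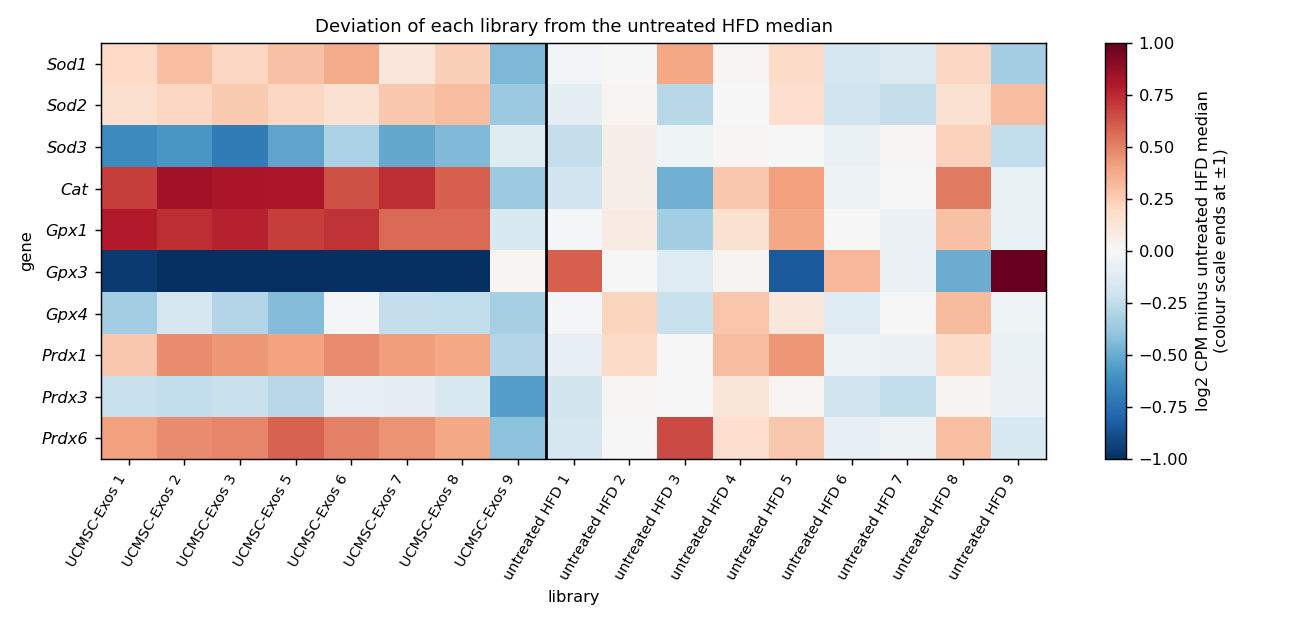
Difference in log2 CPM of each gene (rows) in each library (columns, UCMSC-Exos left of the line and untreated HFD right of it) from the untreated HFD median, in red where higher and blue where lower; the colour scale ends at ±1. For UCMSC-Exos, 7 columns show 6 red and 4 blue rows, and the column of UCMSC-Exos 9 is blue in 9 of 10 rows.

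Levels of different genes were compared per length, as RPKM, which divides the CPM by the exon length in kilobases, with no test. Cat averaged 1413 RPKM (range 706.4 to 1627) in UCMSC-Exos and 960.7 RPKM (652.2 to 1298) in untreated HFD. Gpx1 came next with 1250 RPKM (735.7 to 1412) in UCMSC-Exos and 853.9 RPKM (647.3 to 1072) in untreated HFD. The ranges of Cat and Gpx1 overlapped in both groups, and both genes stood apart from Prdx1, the third, at 294.6 and 251.2 RPKM in UCMSC-Exos and untreated HFD. Below it lay Gpx4 with 182.8 RPKM in UCMSC-Exos and 228.8 RPKM in untreated HFD, and Sod1 with 149.1 and 134.5 RPKM. The ranges of Gpx4 and Sod1 were apart in untreated HFD and overlapped in UCMSC-Exos. Prdx6 averaged 124.3 RPKM in UCMSC-Exos and 103.8 in untreated HFD, and Prdx3 94.5 and 106.4 RPKM, so the order of these 2 neighbours differed between the groups while their ranges overlapped in both.

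At the low end stood Sod2, Sod3 and Gpx3. In UCMSC-Exos their means were 19.6, 17.4 and 10.5 RPKM, and in untreated HFD 17.4, 23.6 and 26.9 RPKM. Gpx3 was thus the last of the 10 in UCMSC-Exos and the eighth in untreated HFD. The ranges of neighbours among these 3 overlapped in both groups. The annotated exons of Sod2 add up to 10008 bases, the most of the group, and a longer annotated length than the transcripts in use lowers an RPKM. Prdx6, Sod1, Sod3 and Prdx1 follow with 4804, 3970, 3738 and 3043 bases, against 2613 for Cat and 1441 for Gpx1. The order, the shares and the size of the ratios between genes thus rest on the annotated lengths.

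**Figure D4:**
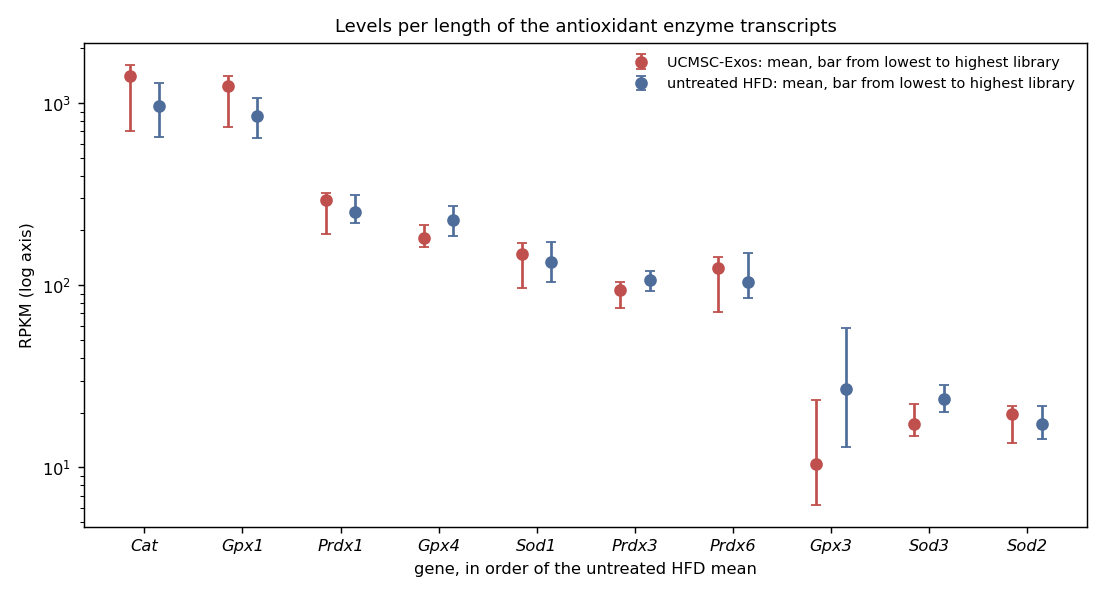
Level per length (RPKM, log axis) of the 10 genes in UCMSC-Exos (red, left of each pair) and untreated HFD (blue, right); points are means and bars run from the lowest to the highest library. Cat and Gpx1 stand above the other 8 genes in both groups, and Gpx3 averages 10.5 RPKM in UCMSC-Exos and 26.9 RPKM in untreated HFD.

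Summed over the 10 genes, the level was 3556 RPKM (range 2109 to 3943) in UCMSC-Exos and 2707 RPKM (2212 to 3284) in untreated HFD. At the annotated exon lengths, Cat and Gpx1 made up most of it. Cat held 39.4% ± 2.77 of the sum in UCMSC-Exos and 35.2% ± 2.82 in untreated HFD, and Gpx1 35.1% ± 1.29 and 31.5% ± 1.34 (SD, n = 8 and 9). The share of Gpx4 was 5.32% ± 1.26 in UCMSC-Exos and 8.48% ± 0.598 in untreated HFD.

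Ratios within a library do not depend on how libraries are scaled, and the following are descriptions. Their size depends on the annotated lengths, which are the same for both groups. Gpx1 exceeded Gpx4 6.83 times at the median in UCMSC-Exos and 3.66 times in untreated HFD, with 7 of 8 UCMSC-Exos libraries above every untreated one. The median ratio of Gpx1 to Gpx3 was 138.3 in UCMSC-Exos and 35.3 in untreated HFD, and that of cytosolic Sod1 to secreted Sod3 was 9.24 and 5.42. In each of these, 7 of 8 UCMSC-Exos libraries again lay above every untreated library. For Sod1 to Sod3, UCMSC-Exos 9 lay below every untreated library, at 4.35 against 4.94 for the lowest of them. Of the ratios of a mitochondrial to a cytosolic member, Sod2 to Sod1 stood at 0.133 in UCMSC-Exos and 0.131 in untreated HFD. Prdx3 to Prdx1 stood at 0.324 and 0.422, with 7 of 8 UCMSC-Exos libraries below every untreated one. Cat to Sod1 was 9.77 in UCMSC-Exos and 7.57 in untreated HFD.

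Of the other genes of these families, 7 were tested, with a median log2 fold change of 0.02, against −0.02 over all genes tested, and 14.3% passed, against 20.2% of all genes. Only Gpx8, a peroxidase of the endoplasmic reticulum, passed, and it was lower at 1.54 ± 0.721 CPM in UCMSC-Exos and 2.86 ± 1.23 CPM in untreated HFD (SD, n = 8 and 9; log2 fold change −0.89 ± 0.30, edgeR adjusted p = 0.0466). The call held in the 4 fits that left out UCMSC-Exos 9 or untreated HFD 3, 5 or 8, and was lost when any other single library was left out, at adjusted p values up to 0.0917. It was also lost with no filter, and with surrogate variables at −0.33 (edgeR adjusted p = 0.565; 0.00142 to 0.565 over 27 alternatives). Prdx2, Prdx4 and Prdx5, a cytosolic, a secretory pathway and a mitochondrial and peroxisomal peroxiredoxin, stood at 0.02, 0.29 and 0.12 and did not pass. The copper chaperone of SOD1, Ccs, stood at 0.13. The count of higher genes was 0 with all libraries, 2 without untreated HFD 3, and 1 without UCMSC-Exos 9 or untreated HFD 5. Of all genes tested 23.5% passed without untreated HFD 3, 35.7% without UCMSC-Exos 9 and 20.7% without untreated HFD 5.

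The thioredoxin and glutathione systems return the electrons that peroxidases use. Of 21 genes tested 3 were higher and 1 lower, with a median of 0.06. These are 19.0% of the list, close to the 20.2% of all genes tested. Sesn2, a sestrin induced by stress, ranged from 19.5 to 25.4 CPM in UCMSC-Exos and from 12.2 to 17.5 CPM in untreated HFD, without overlap, and rose by 0.43 ± 0.08 (SE; edgeR adjusted p = 0.00188). Msrb1, a selenium-dependent methionine sulfoxide reductase, rose by 0.41 ± 0.11 (edgeR adjusted p = 0.0149), and that call was lost with surrogate variables. Srxn1, the sulfiredoxin that restores overoxidised peroxiredoxins, averaged 181.9 ± 48.5 CPM in UCMSC-Exos and 265.9 ± 71.7 CPM in untreated HFD (SD, n = 8 and 9), a log2 fold change of −0.55 (edgeR adjusted p = 0.0312). Its call was lost without UCMSC-Exos 1, 2, 3 or 5 or without untreated HFD 4, and with surrogate variables. Without UCMSC-Exos 9 the count of lower genes was 2, in a fit where 35.7% of all genes tested passed.

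NADPH is the final source of these electrons. Of 10 genes that supply it 1 was higher and 3 were lower, 40% against 20.2% of all genes tested, with a median of −0.14. Me1, the cytosolic malic enzyme, ranged from 144.9 to 182.1 CPM in UCMSC-Exos and from 201.6 to 353.4 CPM in untreated HFD, without overlap, and fell by 0.70 ± 0.11 (SE; edgeR adjusted p = 0.000279). Pgd, an enzyme of the pentose phosphate pathway, fell by 0.47 ± 0.11 (edgeR adjusted p = 0.00653). Mthfd1, a folate enzyme, rose by 0.41 ± 0.11 (edgeR adjusted p = 0.0132), a call lost with surrogate variables. Without UCMSC-Exos 9 the count of higher genes was 3, in a fit where 35.7% of all genes tested passed.

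Selenoprotein synthesis and the other selenoproteins gave 4 higher and 1 lower of 19 tested, 26.3% against 20.2% of all genes, with a median of 0.13. Sephs2, which makes the selenium donor for selenocysteine, averaged 664.8 ± 119.9 CPM in UCMSC-Exos and 446.4 ± 47.4 CPM in untreated HFD (SD, n = 8 and 9) and rose by 0.57 ± 0.11 log2 units (± SE; edgeR adjusted p = 0.00241). Dio1, the deiodinase that activates thyroid hormone, and Selenos, a protein of the endoplasmic reticulum membrane, rose by 0.48 and 0.43. With surrogate variables 0 genes of the list passed in either direction. The count of higher genes was 9 without UCMSC-Exos 9, a fit in which 35.7% of all genes tested passed. The count of lower genes was 2 without UCMSC-Exos 9 or untreated HFD 5 or 8, 1 without untreated HFD 3, and 0 when any other single library was left out.

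Cat works inside peroxisomes, and of 23 tested genes listed for peroxisomal oxidases and protein import 7 were higher and 0 lower, 30.4% against 20.2% of all genes tested, with a median of 0.14. The 23 include Pmp22, a gene of peripheral myelin and not of peroxisomes, which stood at −0.06 and did not pass. Hao1, the glycolate oxidase, averaged 266.1 ± 62.6 CPM in UCMSC-Exos and 158.6 ± 20.04 CPM in untreated HFD (SD, n = 8 and 9) and rose by 0.75 ± 0.13 (SE; edgeR adjusted p = 0.00102). Pipox, which oxidises sarcosine, and Pxmp2, a channel of the peroxisomal membrane, rose by 0.71 and 0.66 (edgeR adjusted p = 0.000951 and 0.00364), and both calls were lost with surrogate variables. The count of 7 became 4 when UCMSC-Exos 1, 2, 3, 5 or 7 or untreated HFD 1, 2, 4, 6 or 9 was left out, or when genes were not filtered. Of all genes tested 12.2% to 18.1% passed in those leave-out fits and 7.28% with no filter. With surrogate variables 2 genes were higher and 1 lower. A single gene passed as lower without UCMSC-Exos 5 or without untreated HFD 3.

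Genes of enzymes that produce superoxide or peroxide moved in both directions, with 3 higher and 5 lower of 14 tested, 57.1% against 20.2% of all genes, and a median of −0.03. Aox3, an aldehyde oxidase, averaged 691.7 ± 185.3 CPM in UCMSC-Exos and 329.3 ± 37.9 CPM in untreated HFD (SD, n = 8 and 9) and rose by 1.07 ± 0.14 (SE; edgeR adjusted p = 7.64e-05). Nox4, an NADPH oxidase that releases peroxide, rose by 1.00 ± 0.17 (edgeR adjusted p = 0.000631), and Ero1lb, a thiol oxidase of the endoplasmic reticulum, by 0.57 ± 0.13. Among the lower genes were Cybb, Cyba and Ncf4, subunits of the phagocyte oxidase, and the monoamine oxidase Maoa, named after their values were seen. The phagocyte oxidase genes did not all pass, and Rac2, which activates that oxidase, stood at 0.04 (edgeR adjusted p = 0.863). The count of 5 lower genes was 0 with surrogate variables and 2 with no filter. It was 2 without UCMSC-Exos 1, 2, 3, 5 or 7 or untreated HFD 2, and 3 without UCMSC-Exos 8 or untreated HFD 3, 4 or 6. Across these leave-out fits 12.2% to 23.5% of all genes tested passed. Of 8 monocyte and neutrophil markers 2 passed, Ly6c2 and Ccr2, at log2 fold changes of −1.06 and −1.12. The other 6 did not pass, and S100a8 and S100a9 among them stood at 0.41 and 0.37. The sum of the 8 was 653.6 CPM in UCMSC-Exos 9 and 222.8 to 382.5 CPM in the other UCMSC-Exos libraries. In untreated HFD it was 303.6 to 482.5 CPM. The part of these cells in the lower oxidase subunits was not tested.

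Of 13 tested genes of lipid peroxidation, the setting in which Gpx4 acts, 1 was higher and 1 lower, 15.4% against 20.2% of all genes tested, with a median of 0.09. Slc3a2, the heavy chain of the cystine transporter, fell by 0.46 ± 0.10 (SE; edgeR adjusted p = 0.00501). Ncoa4, which delivers ferritin for breakdown, stood at 0.28 (edgeR adjusted p = 0.0373), and its call held in 5 of 17 fits that left out 1 library, those without UCMSC-Exos 6 or 9 or untreated HFD 3, 5 or 8. With surrogate variables neither passed, and Ncoa4 stood at 0.10 (edgeR adjusted p = 0.547; 0.000102 to 0.547 over 27 alternatives). The count of higher genes was 2 without UCMSC-Exos 9 or without untreated HFD 3, where 35.7% and 23.5% of all genes tested passed. Among 10 genes that supply metals to the dismutases 3 were higher and 0 lower, 30% against 20.2% of all genes tested, with a median of 0.26. The copper importer Slc31a1 rose by 0.43 ± 0.10 (edgeR adjusted p = 0.00885), and Slc39a14 and Slc39a8, importers of zinc and manganese, by 0.43 and 0.30. The calls of these 3 were lost with surrogate variables, and that of Slc39a8 also without UCMSC-Exos 1, 2, 3, 5, 7 or 8 or untreated HFD 2, 6 or 7. Without untreated HFD 3, 1 gene passed as lower.

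**Figure D5:**
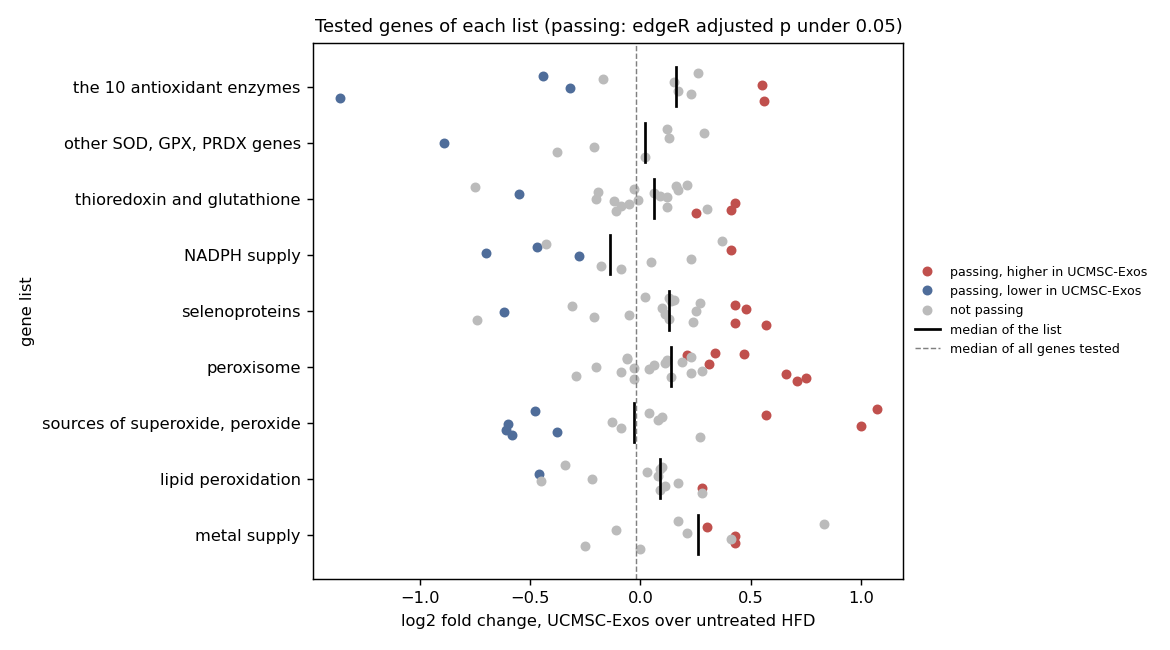
Log2 fold change, UCMSC-Exos over untreated HFD (horizontal axis), of each tested gene (points) in the antioxidant enzyme group and in 8 related lists (rows); red points passed as higher and blue as lower at an edgeR adjusted p of 0.05, the black bars are list medians and the dashed line is the median of all genes tested. The widest spread among the 10 enzymes runs from −1.36 for Gpx3 to 0.56 for Cat, and the highest list median is 0.26, for metal supply.

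The likeness of other genes to the 5 that passed was measured by Pearson's r of the deviations of log2 CPM from the group means over the 17 libraries, as a description. These libraries share the foreign tissue of untreated HFD 3 and 9 and the separate position of UCMSC-Exos 9, so r is also given over the 14 others. Closest to Cat were Abat, an aminotransferase of GABA, at 0.98 (0.92 over 14), and Ugt3a1 and Mettl7a1, both at 0.97 (0.89 and 0.92). Closest to Gpx1 were Hagh, the glyoxalase that hydrolyses lactoylglutathione, at 0.97 (0.91), then Cat and Adtrp, both at 0.96 (0.82 and 0.94). For Gpx3 they were Ehd2, Mllt6 and Pde3a at 0.94, 0.93 and 0.93 (0.82, 0.83 and 0.93). For Gpx4 they were Slc48a1, a haem transporter, at 0.93 (0.92), and Arpp19 and Tmed4 at 0.82 and 0.81 (0.79 and 0.84). For Sod3 they were Hexa, Pkmyt1 and Svbp at 0.87, 0.85 and 0.85 (0.79, 0.71 and 0.73). Among the members themselves, Sod1 and Prdx6 deviated most alike after Cat and Gpx1, at 0.94 (0.77 over 14), and Gpx3 deviated against Prdx1 at −0.82 (−0.75) and against Sod1 at −0.81 (−0.65).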

How the data were processed

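The submitters' processing notes name mm10 as the build and HISAT2 2.2.1, fastp 1.3.3, Subread 2.0.2 and featureCounts as tools. The authors deposited whole-number read counts per gene; per the file headers they come from featureCounts 2.1.1 over GENCODE vM25 exons, paired, unstranded and without multi-mapping reads. The versions differ between these sources. Without strand, antisense reads cannot be told apart, and genes with near-identical copies lose reads; no exon of a member overlapped another gene. Columns were matched to samples by library name, and 1 column that matched none was not used. No batch is given in the labels. Of 55401 IDs, 55141 had a symbol; 271 of 272 list genes matched.

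The analysis used edgeR 4.0.16 in R 4.3.3: filterByExpr (minimum count 10), TMM, and a robust two-sided quasi-likelihood test of UCMSC-Exos over untreated HFD with Benjamini-Hochberg adjustment over all 16238 genes, threshold 0.05. The SE of an edgeR log2 fold change was derived as its absolute value over the square root of the F statistic of this test. The biological coefficient of variation was 0.29, and log2 CPM used a prior count of 2. RPKM used the exon length in the table. The members, the 8 pathway lists, the marker lists and the tests were chosen with earlier results of these data known. Named genes are all members, up to 3 genes of smallest p per list among those passing at a mean of at least 1 CPM, and the 3 genes most like each member that passed. Other genes named in the text came after their values were seen. Results of 2 single list genes are not reported here.

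The scaling was changed to RLE or upper quartile, and the filter to none or to 1 CPM in 8 libraries. Other fits added the replicate number as a block or 3 surrogate variables from sva 3.50.0, used DESeq2 1.42.0 or voom with quality weights from limma 3.58.1, or left out libraries. Of the 27 alternatives per gene (28 for Gpx4), 17 left out 1 library each. The alternatives thus share most of their data, and a tally of them does not count separate tests. The steps were tested on simulated data. No libraries of the same group agreed within sampling noise, and UCMSC-Exos 2 and 3 came closest, with a median chi-square at 3.79 times that noise. Pairs across the groups were not compared in this way. Sequences come from GENCODE M21 transcripts and RefSeq promoter windows, which held 8 of the 10 members.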

Additional observations from a re-analysis of the deposited data

Results flagged for a closer look

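A library was set apart here where its gap to the nearest other library of its group, over the range of the group, exceeded Dixon's critical value. Chance gives about 1 in 20 groups, and 25 of 74 groups of values met the rule. The groups come from the same 17 libraries, and the ratios reuse member genes. They are therefore not independent, and 1 unusual library can meet the rule in many of them. UCMSC-Exos 9 accounted for most. It was lowest of its group for Sod1 (384.2 CPM), Sod2 (135.7), Cat (1846), Gpx1 (1060), Prdx1 (580.8), Prdx3 (111.2) and Prdx6 (343.0). The other UCMSC-Exos libraries had 565.3 to 675.9 CPM of Sod1, 194.9 to 216.9 of Sod2, 3604 to 4251 of Cat, 1744 to 2034 of Gpx1, 854.7 to 983.6 of Prdx1, 134.6 to 154.3 of Prdx3 and 599.5 to 685.9 of Prdx6. It was highest for Gpx3, at 42.72 CPM against 11.3 to 21.66 CPM in the others.

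The same library was lowest for Msrb1 (208.0 CPM), Sephs2 (372.1), Dio1 (137.7), Pipox (119.4), Pxmp2 (30.21) and Slc31a1 (139.0), and highest for Slc3a2 (64.14 CPM). Its log2 ratios were also the lowest of its group for Gpx1 to Gpx4 (2.085), Gpx1 to Gpx3 (4.964) and Sod1 to Sod3 (2.122). UCMSC-Exos 6 stood apart in Pgd, at 148.8 CPM.

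In the untreated HFD group, untreated HFD 9 was highest for Gpx3 (106.2 CPM) and lowest for Slc39a14 (174.5 CPM). Untreated HFD 3 was highest for Prdx6 (718.8 CPM) and Ero1lb (99.76 CPM), and lowest for the log2 ratio of Cat to Sod1 (1.915). Untreated HFD 5 was lowest for the log2 ratio of Prdx3 to Prdx1, at −1.488. The causes were not tested.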

How the results depend on the processing

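The count of antioxidant enzyme genes passing as higher was 2 with all libraries, 0 with surrogate variables, 6 with limma voom, 6 without UCMSC-Exos 9 and untreated HFD 3 and 9, and 2 to 5 when single libraries were left out, the 5 without UCMSC-Exos 9. The count passing as lower was 3 in each of those fits except the one with surrogate variables, where it was 4. With surrogate variables, Sod1 stood at −0.10 (adjusted p = 0.442), Sod2 at −0.09 (0.417), Cat at −0.02 (0.94), Prdx1 at −0.11 (0.39) and Prdx6 at −0.04 (0.783), opposite in sign to the fit without them. Over all alternatives the adjusted p ranged from 0.00808 to 0.517 for Sod1, 0.00377 to 0.417 for Sod2, 5.6e-05 to 0.94 for Cat, 0.00753 to 0.39 for Prdx1 and 0.000305 to 0.783 for Prdx6. The cause was not tested. No member changed its sign or call with RLE or upper quartile scaling.

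Over all genes, 3274 passed, and 891 with surrogate variables, 7711 with voom, 6716 without UCMSC-Exos 9 and untreated HFD 3 and 9, and 2005 to 5823 without single libraries. The extremes were without UCMSC-Exos 3 and without UCMSC-Exos 9, and without UCMSC-Exos 2 it was 2086. The groups share 8 replicate numbers, but only 3 of the 8 same-numbered pairs deviated together at a correlation over 0.1, and 0 libraries correlated best with their own number, so the numbers were not read as pairs. With the replicate block 3029 genes passed, no member changed its call, and the calls of Srxn1 (0.0769) and Slc39a8 (0.0709) were lost, and 2 in place of 5 genes of superoxide and peroxide sources passed as lower.

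The log2 fold changes of Sod1, Sod2, Prdx1, Prdx3 and Prdx6 had standard errors of 0.07 to 0.13. None of these genes passed with all libraries, and each passed in 1 to 4 of 27 alternatives. They are therefore called neither changed nor unchanged at this number of libraries. Cat and Gpx1 passed with all libraries and in 26 of 27 alternatives, and also missed the threshold with surrogate variables. Totals of 32.9 to 36.1 M reads per library were even across the groups, but the TMM factors were not. They were 0.868 to 0.945 in the UCMSC-Exos libraries other than UCMSC-Exos 9, which had 1.18. In untreated HFD they were 0.973 to 1.12. The CPM values and fold changes rest on this scaling, and no fit of the fold changes used plain totals.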
